A study of Arabidopsis thaliana with 12 samples.

Results

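The 10 genes described here act in leaf senescence and in the breakdown of chlorophyll in Arabidopsis thaliana. They are NYE1, NYE2, NYC1, PPH and PAO, which act on chlorophyll, the transcription factor genes ORE1 and NAP, and the senescence-associated genes SAG12, SAG13 and SWEET15. They were taken by locus code from a table of 33602 loci, and all 10 were found in it. The table holds 1 column of RPKM (reads scaled to gene length and to the size of the library) for each of 6 groups, each of which has 2 libraries in the labels. All libraries came from whole Columbia seedlings, 11 days old, grown under continuous light on half-strength MS medium with 2% sucrose.

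The groups were untreated wild type, lba1 (labelled upf1-/-), upf3-1 (labelled upf3-/-), lba1 upf3-1 (labelled upf1-/-upf3-/-), mock and cycloheximide. Mock seedlings were wild type kept in liquid MS medium for 4 h, and cycloheximide seedlings were wild type kept for 4 h in that medium with the drug at 10 µg/ml. UPF1 and UPF3 are factors of nonsense-mediated decay (NMD), a pathway that destroys mRNAs on which translation ends too early. Cycloheximide blocks translation, on which NMD depends. The number of seedlings behind a library is not given in the sources used here.

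When a leaf senesces, chlorophyll is taken apart in an ordered pathway and the nitrogen and carbon of the leaf are moved to other organs. NYC1 starts the conversion of chlorophyll b to chlorophyll a, NYE1 and NYE2 remove the magnesium, PPH cuts off the phytol tail and PAO opens the ring, after which the green colour is lost. ORE1 and NAP are NAC-domain transcription factors that promote the process, downstream of ethylene and abscisic acid. SAG12, a cysteine protease gene, and SAG13, a short-chain dehydrogenase gene, are widely used markers, SAG12 of age-dependent senescence and SAG13 also of stress and cell death. SWEET15, also called SAG29, encodes a sucrose transporter.

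With 1 column per group, no spread between libraries can be estimated, so no difference below has a replicate check, an SD or a p-value. A gene is called higher or lower where columns differ by at least 2-fold on log2(RPKM + 0.5), a rule of size that understates the change of low genes. Log2 differences below are on that scale, whereas a level given as times another is a ratio of RPKM without the 0.5. The background is the 14079 described genes, whose mean over all 6 columns was 5 RPKM or more. Of the 10 members 8 reached that mean, SWEET15 only through its level in lba1 upf3-1 (8.36 RPKM with that column and 2.60 without it). NYE2 and SAG12 did not reach it, so members are counted out of all 10. Read depth implied by the spacing of low values was between 83.1 M and 91.7 M reads in each column. Gene positions are given in build TAIR10.1. Intervals below are 95% counting intervals and cover counting error only.

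UPF3, at 13.1 RPKM in wild type, was down to 4.95 in upf3-1, and lba1 upf3-1 held 4.82. The lba1 allele is a point mutation, so the UPF1 level, 19.2 to 29.4 RPKM over the 6 columns, does not check that label. As markers of leaf, RBCS1A, CA1 and LHCB2.1 summed to 349 RPKM in lba1 upf3-1, where wild type held 11266. The sum was 9531 in upf3-1, 8084 in lba1, 3578 in mock and 1359 with cycloheximide. RBCS1A made up most of it, at 9500 RPKM in wild type, and the other leaf markers did not always follow. LHCB2.1 was called higher in lba1 (log2 1.15) and was at 0.84 in upf3-1, while RBCS1A and CA1 were below wild type there without passing 2-fold. With cycloheximide against mock, CA1 was at 0.36, whereas RBCS1A (−1.47) and LHCB2.1 (−2.95) were lower. The root markers CASP1, EXPA7 and COBL9 summed to 1.02 RPKM in lba1 upf3-1, where wild type held 10.9, with 13.1 in upf3-1 and 18.8 in lba1, and to 9.13 in mock and 0.524 with cycloheximide. All 3 leaf and all 3 root markers were thus lower by the 2-fold rule in lba1 upf3-1. The seed genes CRU3, CRA1 and OLEO1 were all higher there, with a sum of 318 RPKM, where wild type held 20.1, with 14.0 in upf3-1 and 57.5 in lba1. Their sum was 2.06 in mock and 1.48 with cycloheximide. Of these 3 seed genes 2 were called higher in lba1, and all 3 lower in mock than in wild type. The floral genes AG, AP3 and PI summed to between 0.069 and 2.28 RPKM, with AP3 at 0 under cycloheximide. The highest sum, in lba1 upf3-1, came mainly from PI, at 2.08 RPKM. AG and AP3, at 0.01 and 0.188 RPKM there, were higher in upf3-1, at 0.021 and 0.199. In whole seedlings, fewer cells of a type and less RNA per cell cannot be told apart, and the part of these marker differences in the results below was not tested.

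Across the 6 columns, lba1 upf3-1 had the highest level of 8 members, SAG12 and PPH being the exceptions, and cycloheximide the lowest of 9, with SAG12 at its limit of detection. These places are on RPKM without further scaling, and after median scaling PPH with cycloheximide was above mock (0.18). Counting intervals overlapped for PPH between mock and lba1 upf3-1, and for NYE2 between lba1 and cycloheximide. Of the 10 members 6 were at least 2-fold higher in lba1 upf3-1 than in wild type and 0 were lower, while 22.1% of described genes were higher and 21.2% lower. The median of the 10 was 1.34, against 0.12 for described genes. The 6 were NYE1, NYE2, SAG13, ORE1, NAP and SWEET15. Against mock, 7 of the 10 were at least 2-fold lower with cycloheximide and 0 higher, where 44.1% of described genes were lower and 13.3% higher. There the median of the 10 was −2.24, against −0.81. The single mutants differed less from wild type. In lba1, SAG13 was lower and no member higher (1.93% and 4.77% of described genes), and in upf3-1 no member passed 2-fold in either direction (3.81% higher and 0.547% lower). SWEET15 was lower and no member higher in mock than in wild type (11.9% and 14.2% of described genes). The 3 mutants and mock are all set against the same wild type column. The members and the lists below were chosen with earlier results of these data known, so their counts beside the background are description only.

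**Figure D1:**
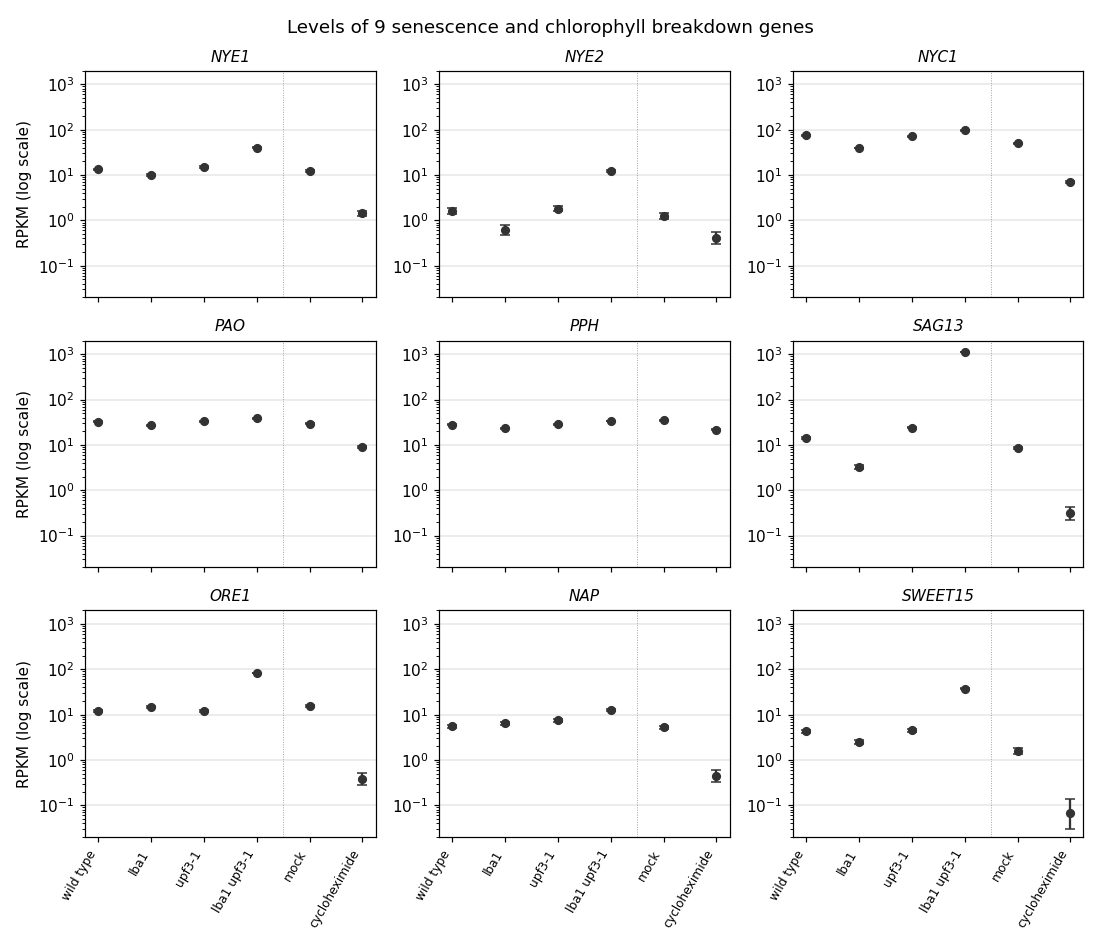
RPKM on a log scale for 9 members in the 6 columns, with mutants left and incubated seedlings right of the dotted line. Points are the authors' column values and bars 95% Poisson counting intervals, with no replicate error. SAG12 is left out, being at 0 in 4 columns. SAG13 spans 0.313 to 1106 RPKM, whereas PPH stays between 21.5 and 34.8.

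The chlorophyll enzymes come first. NYE1 (AT4G22920, chr4:12016420-12018643, minus strand) encodes a magnesium dechelatase. Its level was 39.9 RPKM in lba1 upf3-1, where wild type held 13.3, with 15.3 in upf3-1 and 10.0 in lba1. Mock held 12.4 RPKM and cycloheximide 1.43. NYE1 was therefore 2.99 times the wild type level in lba1 upf3-1, a log2 difference of 1.54 plus or minus 0.07. In mock it was 8.66 times the cycloheximide level, and the log2 difference of cycloheximide from mock was −2.74 plus or minus 0.16. The intervals of wild type and mock overlapped, at 12.8 to 13.9 and 11.8 to 13.0 RPKM.

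NYE2 (AT4G11910, chr4:7156150-7158047, plus strand) is the paralogue of NYE1. From lowest to highest it was at 0.413 RPKM with cycloheximide, 0.616 in lba1, 1.25 in mock, 1.60 in wild type, 1.82 in upf3-1 and 12.3 in lba1 upf3-1. The last of these was 7.66 times the wild type level (log2 2.60 plus or minus 0.18). It was also 19.9 times lba1 and 6.72 times upf3-1. NYE2 intervals overlapped between upf3-1 and wild type, between wild type and mock, and between lba1 and cycloheximide. Its lba1 and cycloheximide values, −0.91 and −0.94 on the log2 scale, fell short of 2-fold, but each passed it with a pseudocount of 0.1 RPKM, at −1.25 and −1.40. Set against NYE1, NYE2 was the lower of the pair in every column. As a ratio the gap was narrowest in lba1 upf3-1 and with cycloheximide, while in RPKM it was widest in lba1 upf3-1.

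NYC1 (AT4G13250, chr4:7684156-7687006, minus strand), the chlorophyll b reductase gene, was the most abundant member in every column other than lba1 upf3-1 and cycloheximide. Untreated seedlings held 96.8 RPKM in lba1 upf3-1, 75.3 in wild type, 71.8 in upf3-1 and 39.6 in lba1. The incubated ones held 50.5 in mock and 7.07 with cycloheximide. The lba1 upf3-1 value was only 1.29 times wild type, so NYC1 was not called there, and in lba1 it lay just inside 2-fold (log2 −0.92, or −1.07 after median scaling). With cycloheximide it was at −2.75 plus or minus 0.08 against mock.

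PPH (AT5G13800, chr5:4451733-4454813, minus strand), the pheophytinase gene, ran from 21.5 RPKM with cycloheximide through 23.2 in lba1, 27.5 in wild type, 28.4 in upf3-1 and 33.7 in lba1 upf3-1 to 34.8 in mock. This was the flattest profile among the 9 detected members, and no comparison called it. The PPH intervals of mock and lba1 upf3-1 overlapped, at 34 to 35.7 and 32.9 to 34.5 RPKM, as did those of upf3-1 and wild type. PAO (AT3G44880, chr3:16383595-16386344, plus strand), the oxygenase gene of the ring-opening step, was at 38.7 RPKM in lba1 upf3-1, 33.6 in upf3-1, 32.5 in wild type, 29.0 in mock, 26.9 in lba1 and 8.84 with cycloheximide. It was called lower with cycloheximide, at log2 −1.66 plus or minus 0.08, but not after median scaling, where it was at −0.82. In lba1 upf3-1 the enzymes NYC1, PPH and PAO thus stood at 0.36, 0.29 and 0.25, and the dechelatase genes NYE1 and NYE2 at 1.54 and 2.60.

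ORE1 (AT5G39610, chr5:15858398-15859911, minus strand), the NAC factor gene at the centre of the age pathway, is kept low in young leaves by the microRNA miR164, which pairs with its coding sequence. The microRNA and its site are shown because the level of the ORE1 transcript is one of the main values here. Both were read from the RefSeq annotation and genome of build TAIR10.1 and are written with T in place of U. Capitals mark bases 2 to 8 of the microRNA, its seed, and the bases of the site that face them.
miR164a, chr2:19520770-19520790, plus strand: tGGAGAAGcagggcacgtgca
ORE1 site, chr5:15858797-15858817, minus strand: ctcacgtgacctgCTTCTCCg
The site lies in the coding part of exon 3 of 3. Of the 21 positions 17 pair, 1 can form a wobble pair, and positions 13, 20 and 21, counted from the 5′ end of the microRNA, do not pair. Searched in the same way, the best window in each of the other 9 members had 6 to 10 mismatches, against 4 in ORE1 with the wobble counted.

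ORE1 was at 82.9 RPKM in lba1 upf3-1, where wild type held 12, with 12.1 in upf3-1 and 14.8 in lba1. In mock it was at 15.4 RPKM, and with cycloheximide at 0.385. The lba1 upf3-1 column held 6.90 times the wild type level (log2 2.74 plus or minus 0.08), 5.62 times that of lba1 and 6.86 times that of upf3-1. Wild type and upf3-1 overlapped in their intervals. The cycloheximide value rested on about 43 reads, and mock held 39.9 times that level, the widest gap of any member in that comparison. The log2 difference of cycloheximide from mock was −4.16 plus or minus 0.20. Of the 14079 described genes 234, ORE1 included, lay at or below that difference.

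The 3 loci that give rise to miR164 were barely covered, and libraries enriched for polyadenylated RNA do not measure the mature microRNA. MIR164B was at 1.99 RPKM in lba1, 1.30 in wild type, 1.03 in upf3-1, 0.232 in mock, 0.080 with cycloheximide and 0.076 in lba1 upf3-1. These values rest on about 27, 17, 15, 3, 1 and 1 reads in the same order. MIR164A was at 1.96 RPKM with cycloheximide, on about 19 reads, with 0 or 1 read in each other column, and MIR164C had no more than 1 read in any column.

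NAP (AT1G69490, chr1:26122080-26123514, plus strand), the second NAC factor gene, was at 12.9 RPKM in lba1 upf3-1, 7.57 in upf3-1, 6.53 in lba1, 5.55 in wild type, 5.30 in mock and 0.446 with cycloheximide. Its log2 differences were 1.14 plus or minus 0.13 in lba1 upf3-1, the smallest of the 6 that were called, and −2.62 plus or minus 0.22 with cycloheximide. ORE1 and NAP were the only members above wild type in lba1, at 0.28 and 0.22, and NAP changed sign there under quantile normalization, to −0.04. Among 4 genes known as targets of ORE1 or NAP, SAG113, a phosphatase gene bound by NAP, was at 17.9 RPKM in lba1 upf3-1 against 1.72 in wild type (log2 3.05). BFN1, a nuclease gene bound by ORE1, was at 6.39 against 1.80 RPKM (1.59). The others, the ribonuclease gene RNS3 (−0.70) and the abscisic aldehyde oxidase gene AAO3 (0.69), did not pass 2-fold. Of the 4, RNS3 alone was called with cycloheximide, at −2.01, and SAG113 alone in mock, at 1.23.

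SAG12 (AT5G45890, chr5:18613239-18614963, plus strand) was at 0 RPKM in wild type, lba1, upf3-1 and cycloheximide and at 0.007 in lba1 upf3-1 and mock, which is about 1 read in each. A count of 3 reads, the limit that a count of 0 allows, corresponds to 0.0251 to 0.0276 RPKM for this gene, so no fold can be given. SAG12 was thus not detected beyond 1 read at this depth in any group, including the one in which most other members were highest.

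SAG13 (AT2G29350, chr2:12600914-12602556, plus strand) was at 1106 RPKM in lba1 upf3-1, whereas wild type held 14.1, upf3-1 24.1 and lba1 3.29. The incubated seedlings held 8.50 RPKM in mock and 0.313 with cycloheximide. SAG13 was the most abundant member in lba1 upf3-1, at 78.3 times wild type, 336 times lba1 and 45.9 times upf3-1. The log2 difference from wild type was 6.24 plus or minus 0.07, and 21 of the 14079 described genes, SAG13 included, lay at or above it. In lba1 it was lower, at −1.95 plus or minus 0.14, with 54 described genes at or below that value. In upf3-1 it was at 0.75 plus or minus 0.08. No intervals of neighbouring columns overlapped for SAG13.

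SWEET15 (AT5G13170, chr5:4181042-4183354, minus strand) was at 37.2 RPKM in lba1 upf3-1, whereas upf3-1 held 4.56, wild type 4.27 and lba1 2.53. Mock and cycloheximide were lower still, at 1.56 and 0.069. It stood at 8.71 times wild type in lba1 upf3-1 (log2 2.98 plus or minus 0.12). It was the only member called between mock and wild type, at −1.21 plus or minus 0.20. The cycloheximide value rested on about 8 reads, with an interval of 0.0299 to 0.137 RPKM, and the log2 difference from mock was −1.86 plus or minus 0.20. Without the pseudocount, mock held 22.7 times the cycloheximide level.

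**Figure D2:**
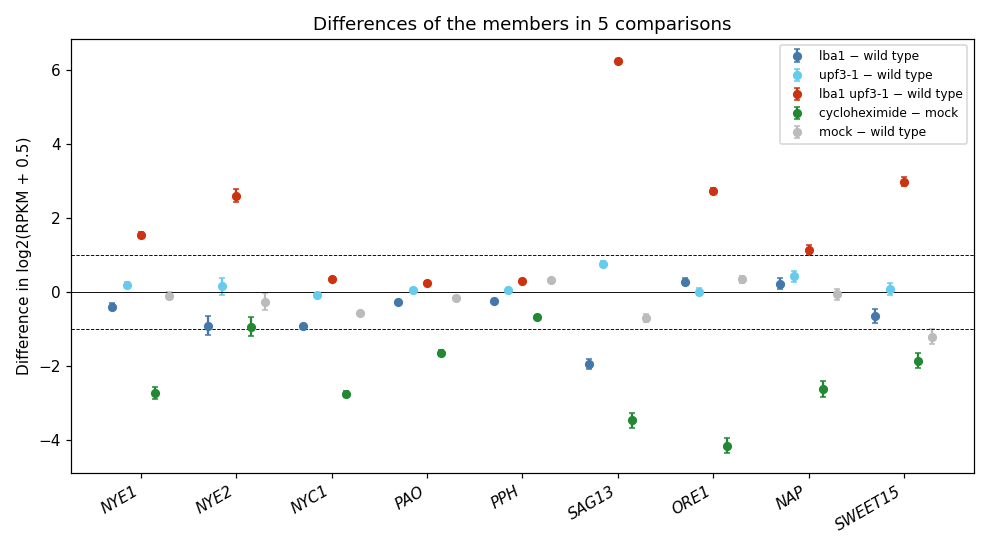
Differences in log2(RPKM + 0.5) for 9 members in 5 comparisons, with bars for the 95% counting interval and dashed lines at 2-fold. The lba1 upf3-1 points lie above 0 for every member shown, from 0.25 (PAO) to 6.24 (SAG13), and the cycloheximide points lie below 0, from −0.68 (PPH) to −4.16 (ORE1).

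In the single mutants most members lay close to wild type. In lba1 7 of 10 members were below wild type, with a median of −0.33 against 0.08 for all described genes, and SAG13, NYC1 and NYE2 were lowest. In upf3-1 8 of 10 were above wild type, with a median of 0.07 against 0.05, and only SAG13 and NAP were beyond 0.4. Quantile normalization turned the upf3-1 differences of NYE2, PAO, PPH, ORE1 and SWEET15 negative, and median scaling that of ORE1, so their direction is not settled. Median scaling shifted the lba1 comparison by 0.16 and the mock comparison by 0.11, and it moved the described genes of the former from 672 higher and 272 lower to 462 and 376. It also brought NYC1 past 2-fold in lba1.

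Because the median described gene stood at −0.81 with cycloheximide, the members were also set against that shift. Median scaling moved this comparison by 0.88 and gave 3358 higher and 3105 lower described genes in place of 1870 and 6209. On that scale ORE1 was at −3.65, SAG13 at −3.00, NAP at −2.09, NYE1 at −2.02, NYC1 at −1.92 and SWEET15 at −1.63, so 6 members were still called lower. NYE2 was at −0.46 and PPH at 0.18. Under quantile normalization NYE2 was at 0.43 and PAO at −0.94.

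Profiles over the 6 columns, centred on each gene's own mean, were compared by Euclidean distance in log2 units. Among members, NAP and NYE1 were closest (0.74), followed by NAP and NYC1 (0.84). SAG13 was farthest from the rest, at 3.68 to 7.39, a measure that also grows with the size of a gene's differences. Its Pearson correlations with the other detected members ran from 0.73 (PPH) to 0.99 (NYE2). Of the described genes that are not members, the nearest to ORE1 was NAC083 (0.62), also called VNI2, a NAC gene known to restrain leaf senescence. VNI2 was at 296 RPKM in lba1 upf3-1, between 71.6 and 74.8 in the other untreated columns, at 84.0 in mock and at 3.57 with cycloheximide. It is the locus next to SWEET15 by code. FLS5 (0.65), a flavonol synthase family gene, and the nitrile specifier gene NSP5 (0.78) followed. The 3 nearest to NYE1 were ALDH2B4, an aldehyde dehydrogenase gene (0.32), the formate dehydrogenase gene FDH (0.34) and SDH8, a succinate dehydrogenase subunit gene (0.36). For SAG12 the nearest were merely flat genes, AT3G26000, AT1G72740 and ABCB20.

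Among other genes of chlorophyll breakdown, more were lower than higher in lba1 upf3-1. Of 9 such genes 5 were lower, 1 was higher and 3 were neither, with a median of −1.11 against 0.12 for described genes. Of described genes 21.2% were lower and 22.1% higher. CLH1, a chlorophyllase gene, was at 0.863 RPKM against 42.3 in wild type (−4.97), and SGRL, the relative of NYE1 that is active in green tissue, at 7.93 against 59.7 (−2.84). RCCR, the reductase that follows PAO, was at −1.46. MES16, which demethylates the late breakdown products, was the exception, at 90.3 against 18.7 RPKM (2.24).

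Chlorophyll synthesis genes were nearly all lower. Of 13 genes 12 were lower in lba1 upf3-1 and 0 higher, beside 21.2% and 22.1% of described genes. Their median was −2.98, against 0.12 for described genes. The vinyl reductase gene DVR was at 5.75 RPKM against 112 in wild type (−4.17), PORC, a protochlorophyllide reductase gene, at 10.4 against 149 (−3.78), the cyclase gene CRD1 at 55.8 against 724 (−3.69) and CHLH, a subunit of magnesium chelatase, at 31.0 against 402 (−3.67). The exception was PORA, at or below 0.368 RPKM in all untreated columns. It was at 0.018 RPKM in lba1 upf3-1 against 0.154 in wild type, on about 3 and 21 reads. With a pseudocount of 0.1 RPKM all 13 genes were called lower. The leaf markers were lower in the same column, as given above. Together the 13 genes summed to 297 RPKM in lba1 upf3-1, 2410 in wild type and 852 in mock. In mock 11 of the 13 were lower than in wild type and 6 of the 9 other breakdown genes were lower, PORC at −2.53, DVR at −1.88, SGRL at −2.03 and CLH1 at −1.71 leading them, while PORA was higher (1.73). The medians of the lists there were −1.53 and −1.50, against 0.15 for described genes, of which 11.9% were lower and 14.2% higher. Neither lba1 nor upf3-1 had any gene of either list past 2-fold, where 6.71% and 4.35% of described genes were.

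With cycloheximide 6 of the 9 other breakdown genes were lower than in mock, among them CYP89A9, a cytochrome P450 that acts on late products (−3.38), TIC55, a hydroxylase of such products (−1.60, with 30.8% of its exon bases shared with another locus), and SGRL (−1.46). The median of the 9 was −1.28, against −0.81 for described genes, of which 44.1% were lower. CLH2 (−2.23) is uncertain, since 71.5% of its exon length overlaps a neighbour. Of the 13 synthesis genes 5 were lower, a share below that 44.1%. They included GUN4, a regulator of magnesium chelatase, at −2.45 with 73.0% of its exon bases shared, PORB at −1.77, CRD1 at −1.72 and PORA at −1.20, with a list median of −0.77. After median scaling these counts were 2 lower and 1 higher of the 9 and 1 lower and 2 higher of the 13.

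**Figure D3:**
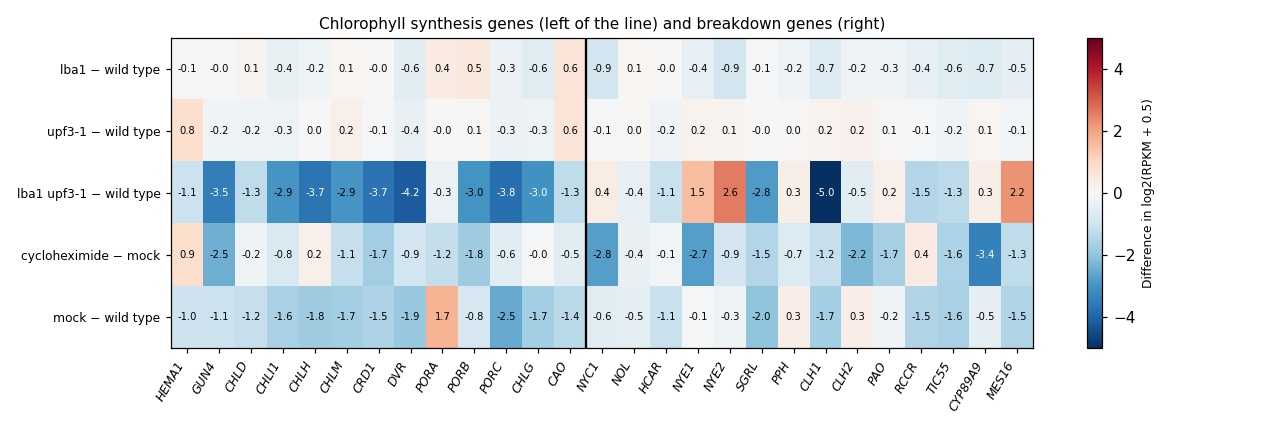
Differences in log2(RPKM + 0.5) for 13 chlorophyll synthesis and 14 breakdown genes, each block in approximate pathway order, in 5 comparisons. In the lba1 upf3-1 row the synthesis block is negative throughout, from −0.34 (PORA) to −4.17 (DVR). The breakdown block goes both ways, with NYE1, NYE2 and MES16 at 1.54, 2.60 and 2.24. In that block CLH1, SGRL, RCCR, TIC55 and HCAR are at −4.97, −2.84, −1.46, −1.30 and −1.11.

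Of 24 other regulators of senescence, 13 were higher and 5 lower in lba1 upf3-1, beside 22.1% and 21.2% of described genes. The count of lower genes was thus near the background share. Their median was 1.37, against 0.12 for described genes. The NAC genes JUB1, which delays senescence, NAC055 and NAC019, both stress-inducible, had levels of 40.1, 64.3 and 71.4 RPKM, where wild type held 0.682, 2.38 and 2.86 (5.10, 4.49 and 4.42). GLK1, a factor that maintains chloroplasts, was at 3.52 against 45.9 RPKM (−3.53). The list thus holds promoters and repressors of senescence, and its counts mix them. With cycloheximide 7 of the 24 were higher and 9 lower than in mock, beside 13.3% and 44.1% of described genes. The median was −0.49, against −0.81 for described genes. Median scaling made these counts 10 and 5 and the median 0.28. WRKY53, a senescence regulator, was at 240 RPKM against 9.62 (4.57, with 20.5% of its exon bases shared) and WRKY70 at 285 against 20.7 (3.75). VNI2 (−4.38) and GLK2 (−3.45) were lower. In lba1 1 was higher, the light-signalling factor gene PIF4 (1.79), and 2 were lower, led by WRKY70 (−1.68). Of described genes 4.77% were higher and 1.93% lower there. In upf3-1 2 were higher, PIF4 (1.35) and WRKY22 (1.14), and 0 lower, beside 3.81% and 0.547% of described genes. In mock 8 were higher, led by WRKY6 (3.17) and WRKY22 (2.78), and 1 was lower, beside 14.2% and 11.9% of described genes.

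Other senescence-associated genes included 12 higher and 0 lower of 18 in lba1 upf3-1, beside 22.1% and 21.2% of described genes. Their median was 2.58, against 0.12 for described genes. NHL10 was at 97.9 RPKM against 2.43 in wild type (5.07), SRG1, an oxygenase family gene, at 206 against 6.02 (4.98), SAG14, a blue copper protein gene, at 458 against 23.2 (4.27), and SAG21, a LEA family gene, at 1253 against 80.4 (3.95). This list went in both directions with cycloheximide, with 5 of the 18 higher and 9 lower, beside 13.3% and 44.1% of described genes. The median was −0.55, against −0.81. Median scaling made these counts 8 and 6 and the median 0.33. SAG14 was at 923 RPKM against 91.8 in mock (3.32), whereas YLS5 (−3.97), SRG1 (−3.60) and the auxin-related gene SAUR36 (−3.40) were lower. Mock itself had 9 higher and 0 lower than wild type, beside 14.2% and 11.9% of described genes, led by SAG21 (3.46) and SAUR36 (2.04). In lba1 2 were lower, SAG14 (−1.82) and the receptor kinase gene FRK1 (−1.33), and 1 was higher, SEN1 (1.12). Of described genes 1.93% were lower and 4.77% higher there. In upf3-1 2 were higher, SRG1 (1.40) and SAG21 (1.23), and 0 lower, beside 3.81% and 0.547% of described genes.

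Genes that recycle nitrogen and protein, autophagy genes included, numbered 21. In lba1 upf3-1 13 were higher and 0 lower, beside 22.1% and 21.2% of described genes. Their median was 1.14, against 0.12 for described genes. The glutamate dehydrogenase gene GDH2 was at 1090 RPKM against 71.1 in wild type (3.93), the asparagine synthetase gene ASN1 at 85.4 against 7.21 (3.48), alphaVPE, a vacuolar processing protease gene, at 10.6 against 0.814 (3.08) and the autophagy gene ATG8H at 54.3 against 9.46 (2.46). With cycloheximide 13 were lower and 1, ASN1, higher (2.76), beside 44.1% and 13.3% of described genes. The median was −1.98, against −0.81 for described genes. Median scaling made the counts 11 and 1 and the median −1.14, and quantile normalization gave a median of −1.12. The papain-like protease genes RD21A and RD19A were at 3.52 and 12.2 RPKM against 106 and 174 in mock (−4.73 and −3.78), ATG8B was at −3.57 and the cytosolic glutamine synthetase gene GLN1;1 at −3.25. In lba1 3 were higher, led by ASN1 (2.76) and ATG8E (1.16), and 0 lower, beside 4.77% and 1.93% of described genes. In upf3-1 none passed 2-fold, where 4.35% of described genes did. In mock 4 were higher, led by GDH2 (2.42) and the nitrate transporter gene NRT1.7 (1.69), and 2 were lower. Of described genes 14.2% were higher and 11.9% lower there.

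**Figure D4:**
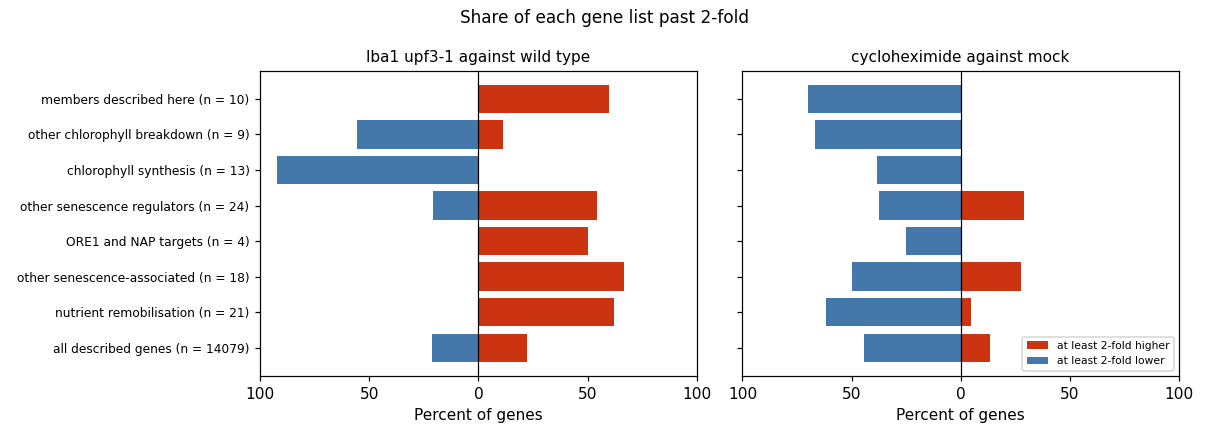
Percent of the genes of each list that were at least 2-fold higher (right) or lower (left) in lba1 upf3-1 against wild type and in cycloheximide against mock, with all 14079 described genes as the lowest bar. The members stand at 6 of 10 higher and 0 lower in the first panel and 7 of 10 lower and 0 higher in the second.

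The members were also compared for features of their annotated transcripts that are known to attract NMD. An intron more than 50 nt after the stop codon occurred in 0 of 10 members in any annotated transcript, and in 9.53% of 13804 described coding genes. A 3′ UTR over 350 nt occurred in 0 of 10 for the 1 transcript taken per gene, that with the longest coding sequence, and in 26.4% of described coding genes. NYE1 has another transcript with an equally long coding sequence and a 3′ UTR of 356 nt in place of 313, so its place in that count depends on which is taken. Shorter coding transcripts of SAG13 and PPH had 3′ UTRs of 564 and 554 nt. An ATG in the leader, which could open an upstream reading frame, was present in the same transcript of 6 members, NYE1, NYC1, PPH, PAO, ORE1 and SWEET15, and in 62.4% of described coding genes. The table gives 1 value per gene, so splice variants of the members cannot be told apart.

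Because most members were highest in the same column, the 250 bases before each annotated start were searched on both strands for ACGTG, the core of the abscisic acid response element. It occurred in 4 of 10 members and in 22.9% of 27443 coding genes. The 4 are shown from the genome of build TAIR10.1, with each ACGTG or its reverse complement CACGT in capitals.
NYE2, chr4:7155900-7156149, plus strand: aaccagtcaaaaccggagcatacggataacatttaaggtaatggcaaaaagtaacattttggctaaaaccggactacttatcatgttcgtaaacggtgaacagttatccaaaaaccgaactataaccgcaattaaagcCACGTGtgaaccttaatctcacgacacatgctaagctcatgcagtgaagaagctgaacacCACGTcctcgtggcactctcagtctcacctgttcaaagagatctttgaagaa
SAG13, chr2:12600664-12600913, plus strand: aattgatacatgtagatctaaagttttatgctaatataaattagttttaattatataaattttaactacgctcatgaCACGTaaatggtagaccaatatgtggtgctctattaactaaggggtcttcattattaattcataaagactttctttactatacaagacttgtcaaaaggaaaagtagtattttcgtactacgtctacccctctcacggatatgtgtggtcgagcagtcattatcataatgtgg
NAP, chr1:26121830-26122079, plus strand: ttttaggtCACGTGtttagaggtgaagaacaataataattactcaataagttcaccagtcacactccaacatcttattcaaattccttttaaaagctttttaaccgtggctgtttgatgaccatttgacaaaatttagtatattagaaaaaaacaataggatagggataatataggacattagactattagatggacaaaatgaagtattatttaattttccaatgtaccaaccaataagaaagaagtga
SWEET15, chr5:4183355-4183604, minus strand: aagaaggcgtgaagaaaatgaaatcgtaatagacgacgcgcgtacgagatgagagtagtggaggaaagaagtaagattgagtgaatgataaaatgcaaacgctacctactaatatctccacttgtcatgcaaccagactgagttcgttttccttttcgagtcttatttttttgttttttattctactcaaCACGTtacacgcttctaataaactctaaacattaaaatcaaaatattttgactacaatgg
NYE2 and NAP each hold the palindrome CACGTG, the G-box, which contains the core on both strands and occurred in 6.49% of the 27443 windows. TTGAC, the core of the W-box bound by WRKY factors, occurred in 5 of 10 members, NYE2, NYC1, SAG13, NAP and SWEET15, and in 44.9% of windows. A match describes the letters of the window and shows no binding.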

How the data were processed

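Transcript levels were measured by RNA sequencing in 12 libraries of whole seedlings in 6 groups of 2. The authors deposited RPKM values, 1 column per group, for 33602 loci. Libraries were of the Illumina TruSeq type, per the labels' protocols, a design with poly(A) selection and without strand marking. Per the submitters' processing notes the build was TAIR10. Neither the read aligner and counting method nor the way in which 2 libraries became 1 column is given in the labels or headers.

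Locus codes were looked up in the RefSeq annotation of TAIR10.1, where 32835 of them were found. It gave exon lengths, exon bases shared with other loci, transcript features and sequences. The files hold no coordinates, so all coordinates are those of TAIR10.1. Depth was estimated from 623 transfer RNA loci, at which low values multiplied by gene length are whole multiples of 1 read. Between 94.2% and 97.4% of the values used, up to 8 reads, were whole within 0.05 of a read plus rounding. Read numbers and counting intervals (exact Poisson for levels, a normal approximation for log2 differences) follow from this depth and from exon lengths that may differ from the authors'. PCR copies are not independent molecules.

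Differences were computed on log2(RPKM + 0.5) with Python 3.11.15, numpy 2.4.6 and pandas 2.3.3. The planned fit by library (limma) was not possible on 1 column per group, and the size rule planned for that case was used. The members and lists were chosen with earlier results of these data known. Named genes were all members, the genes of each list with the largest differences (up to 4 past 2-fold in lba1 upf3-1 and cycloheximide, up to 2 elsewhere), the markers, UPF1 and UPF3, and the 3 nearest profiles to ORE1, NYE1 and SAG12. The depth and size rules were run on simulated data with counting error only. Having no variation between libraries, those data cannot show how often the size rule calls unchanged genes in real columns. Alternatives were pseudocounts of 0.1 and 1, median scaling, quantile normalization, no filter and folds of 1.5 and 4.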

Additional observations from a re-analysis of the deposited data

How the results depend on the processing

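No paired analysis was possible because each group of 2 libraries is 1 column, and for the same reason no library could be left out. In lba1 upf3-1 the 6 members called higher numbered 6 under both pseudocounts, both scalings and the 1.5-fold rule, and 4 under the 4-fold rule. With cycloheximide the 7 called lower became 8 (pseudocount 0.1), 6 (either scaling), 9 (1.5-fold) and 5 (4-fold). In lba1 the 1 member called became 2 with a pseudocount of 0.1 (NYE2 added) and 2 with median scaling (NYC1 added), 4 at 1.5-fold and 0 at 4-fold. In upf3-1 0 became 1 at 1.5-fold, and in mock 1 became 2 at 1.5-fold and 0 at 4-fold. Without a filter on low values, called genes over the whole table numbered 1507 in lba1 in place of 944, and 9747 in lba1 upf3-1 in place of 6093. For upf3-1, quantile normalization gave 447 higher and 156 lower described genes in place of 536 and 77. No member called in a comparison changed sign under any alternative. Depth limits SAG12, MIR164A, MIR164B, MIR164C and the cycloheximide level of SWEET15, all at or under 27 reads, and the lack of replicate columns limits every difference.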
